A study of Mus musculus with 17 samples.

Results

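Complement genes known to be made in fat, namely *Cfd*, *C3*, *C4b*, *Cfb*, *C1qa*, *C1qb*, *C1qc*, *C2* and *Masp1*, were followed in perigonadal white adipose tissue (pWAT) of mice lacking the long noncoding RNA gene *U90926*. These 9 of the 55401 genes in the deposited files were chosen by name. Their levels and their U9-KO against WT values in these libraries were in view. Those values are thus a description, also where the test over all genes is given beside them. The animals were C57BL/6J littermates of both sexes on standard chow, killed at 16 weeks of age, and U9-KO mice lacked every exon of *U90926* in all cells. Whole pWAT was sequenced, with 1 library a mouse, from 5 WT females, 5 U9-KO females, 3 WT males and 4 U9-KO males. The study asked how pWAT differs between U9-KO and WT mice of each sex, and the sexes are compared here within each genotype as well.

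Complement is a cascade of proteases that tags targets with C3 fragments and can end in a membrane pore. It starts by the classical route (C1q, then C4 and C2), the lectin route (MASP proteases, then C4 and C2) or the alternative route (C3, factor B and factor D). Fat is unusual in that adipocytes secrete factor D, also called adipsin and encoded by *Cfd*, and C3, whereas C1q is a product of macrophages in most tissues. In RNA from whole tissue, fewer cells of a type and less RNA per cell cannot be told apart.

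The values are normalized counts, that is reads per gene divided by a scaling factor for the library. The gene-counted reads behind them were estimated at about 19720000 to 27610000 per library from the spacing of low values. *U90926* itself stood at 0 in 15 of the 17 libraries and at 1 in the others, so it does not check the genotype labels. Adipocyte markers were high in every library, with *Adipoq*, the adiponectin gene, at 27618 to 72328 and *Fabp4*, a lipid carrier, at 65303 to 244958. Ovary transcripts were present in the females. *Cyp11a1*, which starts steroid synthesis, was at 597 to 71595 in the females and at 20 to 135 in the males. The highest values were in U9-KO female 1 (71595) and WT female 4 (54629), the same 2 mice that had the lowest *Adipoq* (27618 and 30644). The liver transcript *Alb* was at 64 to 271.

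For 4 of the 9 genes the RefSeq table of promoters (GRCm38.p6) held an entry. The stretches that lie upstream of every annotated exon are shown because 2 of the C1q genes, which moved together across mice, and the 2 most abundant members are among them. All 4 were searched on both strands for 4 motifs. GAGGAA is a core bound by ETS factors such as PU.1 of macrophages. TTGCNNAA is a form of the element bound by C/EBP factors of adipocytes and liver. The E-box CACGTG and the TATA box, searched as TATAAA, completed the set, and none of these overlaps another. Capitals mark the matches. They lie at chr4:136886201-136886350 on the minus strand for *C1qb*, chr4:136893066-136893164 minus for *C1qc*, chr17:57228137-57228286 minus for *C3* and chr10:79890703-79890852 plus for *Cfd*, each printed 5′ to 3′ along the gene.
C1qb: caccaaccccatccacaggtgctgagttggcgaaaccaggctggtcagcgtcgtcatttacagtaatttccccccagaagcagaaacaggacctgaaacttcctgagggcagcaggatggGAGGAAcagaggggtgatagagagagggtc
C1qc: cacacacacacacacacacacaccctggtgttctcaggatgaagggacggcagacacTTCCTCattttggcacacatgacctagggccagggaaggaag
C3: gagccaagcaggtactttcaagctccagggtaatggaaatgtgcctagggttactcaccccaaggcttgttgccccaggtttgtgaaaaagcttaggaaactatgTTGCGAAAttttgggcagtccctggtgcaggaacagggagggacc
Cfd: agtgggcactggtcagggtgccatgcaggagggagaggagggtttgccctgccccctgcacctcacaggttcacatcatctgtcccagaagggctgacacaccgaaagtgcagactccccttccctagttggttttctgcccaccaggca

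The ETS core was found once in *C1qb*, on the printed strand, and once in *C1qc*, on the opposite strand. It occurs in 14.5% of the 32851 RefSeq promoters in a window placed as that of *C1qb*, and in 9.91% in the shorter window used for *C1qc*. The C/EBP motif was found once in *C3*, 45 bases before the end of the window, and occurs in 5.46% of promoters in that window. *Cfd* held none of the 4 motifs. These are matches of letters and were not tested as binding sites.

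*Cfd* (ENSMUSG00000061780, chr10:79890853-79892655, plus strand) was the most abundant member by far and stood between rank 4 and rank 9 of all genes in each library. It alone made up 0.515% to 1.40% of the summed normalized counts of a library. In WT females it was at 193625, 158981, 170542, 116993 and 205896, and in U9-KO females at 110741, 195111, 337997, 194673 and 195057. In WT males it was at 332722, 155874 and 288303, and in U9-KO males at 212374, 239779, 227240 and 229283. The 4 groups overlapped. The U9-KO males were the tightest group, with a coefficient of variation (CV, the SD over the mean) of 4.97%, whereas the U9-KO females had 39.6%, set by 1 low and 1 high mouse. The 2 lowest females were those rich in ovary transcripts.

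*C3* (ENSMUSG00000024164, chr17:57203970-57228136, minus strand), the protein on which all routes meet, followed. WT females were at 80161, 73960, 116137, 54862 and 88669, and U9-KO females at 53090, 111104, 111782, 108339 and 83954. WT males were at 62769, 46483 and 43731, and U9-KO males at 45731, 50667, 59417 and 37552. Among females, only the 2 mice rich in ovary transcripts reached down into the range of the males of either genotype.

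*C4b* (ENSMUSG00000073418, chr17:34728380-34743882, minus strand), the C4 gene of the mouse, was the most uneven member. It stood at 15530, 14936, 16506, 5969 and 15978 in the WT females. U9-KO females were at 6822, 12079, 7906, 17171 and 14038. WT males were at 16177, 65769 and 36021, with a CV of 63.5%, and U9-KO males were at 19644, 22207, 30497 and 17256. WT male 2, at 65769, stood far above WT male 1, and it was also the highest of the 17 mice in *C1qa*, *C1qb* and *C1qc*. *C4b* shares 7.5% of its 150-base words with its neighbour *C4a*, the gene of the sex-limited protein, and *C4a* ran at 0.0399 ± 0.00312 of *C4b* (SD, n = 17). Reads split between the 2 genes were not told apart, so *C4a* is reported as uncertain.

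*C2* (ENSMUSG00000024371, chr17:34862604-34898265, minus strand), the protease that pairs with C4b, was at 539, 425, 609, 493 and 574 in the WT females. U9-KO females were at 348, 540, 442, 586 and 488. WT males were at 893, 747 and 1036, and U9-KO males at 757, 919, 1035 and 748. All 7 males lay above all 10 females. *Cfb* (ENSMUSG00000090231, chr17:34856374-34862518, minus strand), which encodes factor B, the counterpart of C2 in the alternative route, was at 49, 78, 46, 40 and 52 in the WT females. U9-KO females were at 41, 66, 52, 65 and 42. WT males were at 100, 142 and 101, and U9-KO males at 85, 76, 145 and 104. *Cfb* thus stood at about 50 in females and 100 in males, with 1 WT female (78) just above the lowest U9-KO male (76).

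The counts of *Cfb* and *C2* are understated. The annotation holds a read-through gene, *Gm20547*, on the same strand over exons of both, and reads that touched more than 1 gene were not counted. Only 20.5% of the exonic bases of *Cfb* and 57.2% of those of *C2* lie outside it. *Gm20547* itself was at 0 in all 17 libraries. Its effect on the comparison of mice was not tested.

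The 3 chains of C1q, the recognition molecule of the classical route, are encoded side by side on chromosome 4 of GRCm38, with *C1qa* (ENSMUSG00000036887) at 136895917-136898803, *C1qc* (ENSMUSG00000036896) at 136889804-136893065 and *C1qb* (ENSMUSG00000036905) at 136880129-136886187, all on the minus strand. In females *C1qa* was at 2537, 2152, 2380, 1481 and 2416 (WT) and at 1756, 1947, 1598, 2274 and 2280 (U9-KO), and in males at 2745, 4386 and 2933 (WT) and at 2363, 3028, 2353 and 2395 (U9-KO). In females *C1qb* was at 2174, 1883, 2168, 1287 and 2307 (WT) and at 1598, 1549, 1397, 2126 and 1973 (U9-KO), and in males at 2577, 3884 and 2993 (WT) and at 2271, 2496, 2100 and 2230 (U9-KO). In females *C1qc* was at 2186, 1969, 2119, 1238 and 2227 (WT) and at 1498, 1548, 1216, 2050 and 2053 (U9-KO), and in males at 2563, 3678 and 2782 (WT) and at 2106, 2516, 1839 and 2230 (U9-KO). WT males were the highest group for each chain, and WT female 4, the WT mouse richest in ovary transcripts, was the lowest WT mouse for each.

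The chains held a close ratio inside a library. Per kilobase of exon, *C1qb* ran at 0.860 ± 0.0520 of *C1qa* and *C1qc* at 0.469 ± 0.0304 of *C1qa* (SD, n = 17), with CVs of 6.05% and 6.48%. Without division by length the ratios were 0.900 and 0.870. The CVs of the levels themselves ran from 7.25% to 26.8% in the 4 groups. After the group mean was taken from each value on the log2 scale, *C1qb* and *C1qc* had a Pearson r of 0.97 over the 17 mice, and *C1qa* had 0.95 with each of them. These correlations describe libraries that share a tissue and a scaling.

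*Masp1* (ENSMUSG00000022887, chr16:23449417-23520815, minus strand), a serine protease of the lectin route, was the lowest member per length. It was at 361, 311, 276, 333 and 271 in the WT females. U9-KO females were at 528, 505, 818, 314 and 353. WT males were at 309, 155 and 233, and U9-KO males at 438, 487, 340 and 276. The highest mouse, U9-KO female 3 at 818, was also the highest for *Cfd*. Its library had the largest summed normalized count of all, 28620744. In both sexes the U9-KO mice reached above the WT mice while the groups overlapped at their edges.

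**Figure D1:**
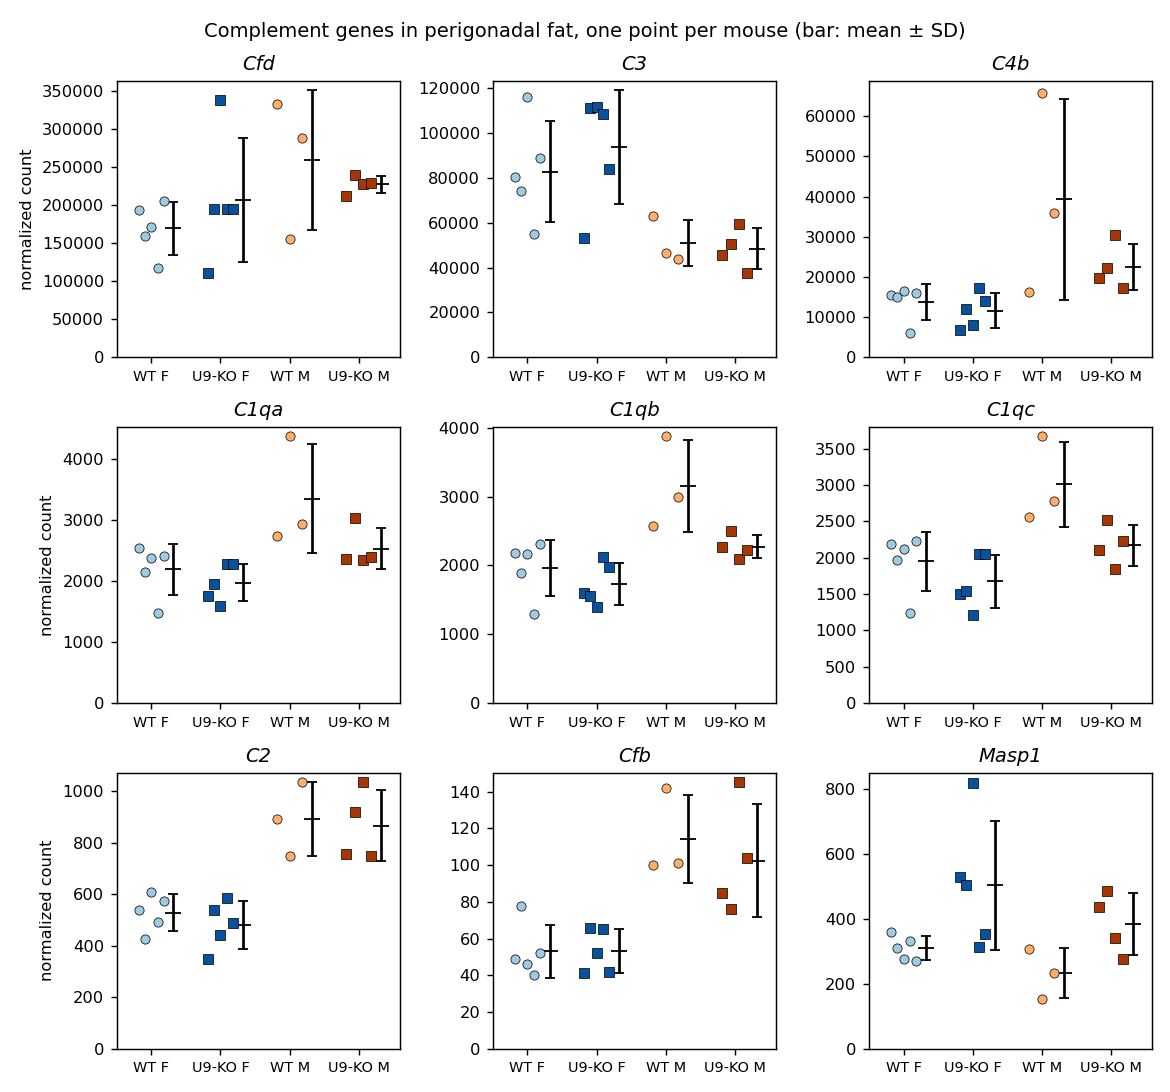
Normalized counts of the 9 complement genes, with 1 panel per gene, the 4 groups on the x axis (F, females; M, males), 1 point per mouse and the group mean ± SD as a bar. The males lie above the females for *C2* and nearly so for *Cfb*, *C3* runs the other way, and a single WT male at 65769 sets the spread of *C4b*.

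Levels of different genes can be compared only per length, here as normalized counts per kilobase of exon that no other gene on the strand overlaps. The order of the means over 17 libraries was *Cfd* (227459), *C3* (14050), *C4b* (3455), *C1qa* (2320), *C1qb* (2001), *C1qc* (1091), *C2* (297), *Cfb* (130) and *Masp1* (37.7). Most neighbours in this order kept it in all 17 libraries. *C3* exceeded *C4b* in 16, the exception being WT male 2, and *C4b* exceeded *C1qa* in 14, the exceptions being 3 females, so this last pair did not differ beyond the spread in females. The places of *C2* and *Cfb* are uncertain for the reason given above, and the exons of *Masp1* include those of alternative transcripts. Before division by length, *C1qb* and *C1qc* were nearly equal, at 0.900 and 0.870 of *C1qa*. Their order thus rests on the exon lengths used, 1088 and 1931 bases.

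The sexes were then compared within each genotype, a contrast that the rule for the members does not name, although earlier results of these data were known when they were chosen. It uses different mice in WT and in U9-KO. Perigonadal fat lies beside the gonads, ovaries in females and testes in males, so sex and the fat pad sampled cannot be told apart. In both genotypes 6 of the 9 genes were higher in males, namely *C4b*, *C2*, *Cfb* and the 3 C1q chains. In WT mice the calls of *Cfb* and *C2* held in all 15 alternative fits (other settings, or 1 mouse left out), that of *C4b* in 5, of *C1qa* in 7 and of *C1qb* and *C1qc* in 11 each. *C3* was lower in U9-KO males than in U9-KO females, and *Cfd* and *Masp1* were called in neither genotype. Since deposited values are scaled within each sex, all 17 libraries were first brought to a common scale, which moved males against females by 0.117 on the log2 scale. The limma test across all genes (adjusted p under 0.05 by Benjamini-Hochberg) called 21.1% of the 23614 genes tested in WT mice, 8.61% as higher and 12.5% as lower in males. In U9-KO mice it called 25.3% of 23856 genes, 10.1% as higher and 15.2% as lower. The 6 of 9 members higher in males stand against those shares of 8.61% and 10.1%. The 3 C1q chains among the 6 moved together across mice, so the 6 are not independent of each other. On the deposited scale 4 members were called higher in males in each genotype.

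The largest difference of a member was that of *C4b*, higher in males by 1.50 ± 0.46 (SE) on the log2(value + 1) scale in WT mice (adjusted p = 0.0430) and by 1.11 ± 0.27 in U9-KO mice (adjusted p = 0.0131). *Cfb* was higher by 1.23 ± 0.25 in WT (adjusted p = 0.00769) and by 1.03 ± 0.24 in U9-KO (adjusted p = 0.00963). *C2* was higher by 0.87 ± 0.15 in WT (adjusted p = 0.00333) and by 0.97 ± 0.16 in U9-KO (adjusted p = 0.00155). Most of these values came from groups with a gap or a narrow overlap between the sexes. On the common scale the sexes did not overlap for 6 members in WT, against 28.2% of all genes, and for 5 in U9-KO, against 23.7%. On the deposited scale these counts were 5 and 4, as *C4b* overlapped in WT mice and *C1qb* in U9-KO mice.

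The C1q chains differed less. In WT mice *C1qa* was higher in males by 0.73 ± 0.21, *C1qb* by 0.81 ± 0.20 and *C1qc* by 0.76 ± 0.20 (adjusted p = 0.0332, 0.0203 and 0.0265). In U9-KO mice the differences were 0.48 ± 0.13, 0.53 ± 0.13 and 0.51 ± 0.16 (adjusted p = 0.0203, 0.0130 and 0.0408). *C3* ran the other way, with -0.81 ± 0.25 in U9-KO (adjusted p = 0.0355), and with -0.55 ± 0.25 in WT, which was not called (adjusted p = 0.148). *Cfd* had 0.69 ± 0.32 in WT (adjusted p = 0.154) and 0.34 ± 0.31 in U9-KO (adjusted p = 0.453). *Masp1* had -0.34 ± 0.20 and -0.22 ± 0.26 (adjusted p = 0.258 and 0.572).

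In WT mice the calls of *C4b* and of the C1q chains depended on single mice of both sexes. When 1 mouse was left out, *C4b* kept its call in 2 of 8 fits, *C1qa* in 4, and *C1qb* and *C1qc* in 6 each. Without WT female 2, or without WT female 5, *C4b* and *C1qa* lost their calls, and without WT female 3 *C4b* lost it. Without WT male 2, or without WT male 3, only *Cfb* and *C2* were called, and the count over all genes fell from 4979 to 3252 and 2656. *C4b* was then higher by 1.01 without WT male 2. *C4b*, *Cfb*, *C1qb* and *C2* were called in U9-KO mice whichever mouse was left out, *C1qa* lost its call without U9-KO male 2, and *C1qc* kept it in only 4 of 9 and *C3* in 3 of 9 such fits. Without the ovary-rich WT female 4, 5 members were called in WT, with *C4b* at an adjusted p of 0.0531, and without the ovary-rich U9-KO female 1 *C3* remained called and *C1qc* did not (adjusted p = 0.0737).

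**Figure D2:**
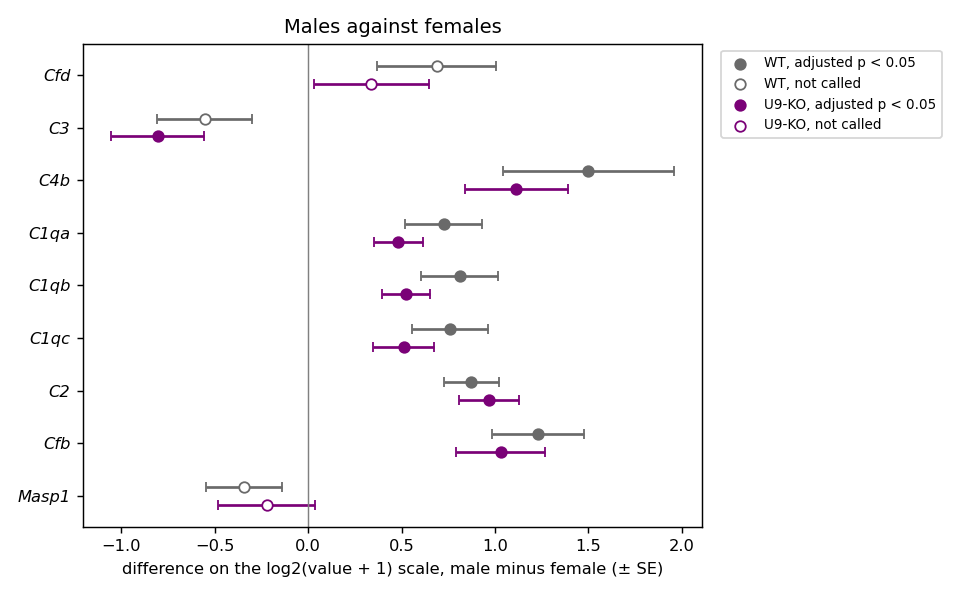
Difference of each member between males and females on the log2(value + 1) scale (x axis, male minus female, ± SE), in WT mice in grey and U9-KO mice in purple, with filled points for an adjusted p under 0.05. The points of 6 genes are filled and lie to the right of 0 in both genotypes, and *C3* lies to the left.

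Markers of other cells moved with sex too. Of 9 adipocyte markers, 5 were higher in males in WT (*Fabp4*, *Pparg*, *Lep*, *Lipe* and *Cidec*) and the same 5 with *Plin1* in U9-KO, and none was lower. Their summed normalized counts were 194743 to 461216 over the females and 442815 to 593398 over the males, led by *Fabp4* and *Adipoq*. *Adipoq* itself was not called, with 0.22 ± 0.28 in WT and 0.34 ± 0.26 in U9-KO (adjusted p = 0.618 and 0.355). Of 10 macrophage markers, 5 were higher (*Mertk*, *Csf1r*, *Cd163*, *Cd68* and *Mrc1*) and *Cx3cr1* was lower in males in each genotype, and none stood at 0. Their summed counts, led by *Lyz2* and *Csf1r*, were 11758 to 22942 over the females and 18520 to 40313 over the males. *Csf1r*, a growth factor receptor of macrophages, was higher by 1.14 ± 0.29 and 0.73 ± 0.16, while *Adgre1*, which encodes F4/80, was not called, with 0.39 ± 0.22 and 0.33 ± 0.20. Of 10 ovary markers, 7 were lower in males in WT and 8 in U9-KO. Their summed counts were 4062 to 139868 over the females and 188 to 425 over the males. Of 8 progenitor markers, *Pi16* alone was called, lower in males of each genotype. The part of these cell markers in the differences of the members was not tested.

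Ratios inside a library give a measure that the library's scaling does not touch. *C3* stood at 0.492 ± 0.108 of *Cfd* in the 5 WT females (SD) and 0.473 ± 0.0980 in the 5 U9-KO females, against 0.213 ± 0.0762 in WT males (n = 3) and 0.213 ± 0.0399 in U9-KO males (n = 4), with no overlap of the sexes. *C3* to *Adipoq* was 1.56 ± 0.426 in WT females and 0.906 ± 0.205 in WT males, and in U9-KO it was 1.78 ± 0.253 and 0.806 ± 0.140, again without overlap. *Cfd* to *Adipoq* was 3.16 ± 0.484 in WT females and 4.40 ± 0.790 in WT males, and 3.86 ± 0.690 and 3.80 ± 0.197 in U9-KO. For *C1qa* the answer depended on the macrophage gene set beside it. *C1qa* to *Adgre1* was 2.59 ± 0.130 in WT females and 3.28 ± 0.342 in WT males, whereas *C1qa* to *Mrc1*, the mannose receptor gene, was 1.04 ± 0.108 and 0.747 ± 0.0446. In U9-KO mice *C1qa* to *Adgre1* was 2.88 ± 0.481 and 3.20 ± 0.430, and *C1qa* to *Mrc1* was 1.01 ± 0.127 and 0.680 ± 0.110.

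Comparisons of such ratios between the sexes, 12 in all and, chosen after the values were seen, were put to two-sided exact permutation tests on the log2 scale, male minus female. The smallest p these group sizes allow is 0.0357 in WT and 0.0159 in U9-KO. Both *C3* ratios reached it in both genotypes (exact p = 0.0357 and 0.0159), and so did *C1qa* to *Mrc1*, with -0.47 in WT and -0.58 in U9-KO. In WT mice *C1qa* to *Adgre1* reached it with 0.34 and *C1qa* to *Csf1r* with -0.42. After adjustment over the 12 tests the p of each of these was 0.0536, so none passed. In U9-KO mice *C1qa* to *Csf1r* had -0.25 (exact p = 0.0635) and *C1qa* to *Adgre1* 0.16 (exact p = 0.302). *Cfd* to *Adipoq* had 0.47 in WT (exact p = 0.0714). The difference of *Cfd* to *Adipoq* in U9-KO mice was -0.01 on the log2 scale (exact p = 0.921).

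Between U9-KO and WT mice no member passed the limma test in either sex, and neither did any other gene. The share called was 0% of 24825 genes in females and 0% of 21930 in males, with 553 and 1667 genes at an unadjusted p under 0.05. The paper, which tested with DESeq2, did call genes in each sex at an adjusted p under 0.05, none of them shared by the sexes. As the members were chosen with this contrast in view, their differences are a description. On the log2(value + 1) scale, U9-KO minus WT, *Masp1* had the largest of the members, with 0.62 ± 0.23 (SE) in females and 0.75 ± 0.25 in males. The C1q chains had differences in males of -0.38 ± 0.16 for *C1qa*, -0.45 ± 0.13 for *C1qb* and -0.46 ± 0.14 for *C1qc*, and in females of -0.14 ± 0.16, -0.17 ± 0.17 and -0.22 ± 0.19. *C4b* had -0.24 ± 0.32 in females and -0.62 ± 0.39 in males. *Cfd* had 0.23 ± 0.30 and -0.12 ± 0.27, *C3* 0.17 ± 0.26 and -0.08 ± 0.18, *C2* -0.15 ± 0.15 and -0.05 ± 0.14, and *Cfb* 0.01 ± 0.23 and -0.18 ± 0.23, all within about 1 SE of 0. The smallest adjusted p of a member was 0.612 in males and 1 in females.

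In males every U9-KO value of *C1qb* and *C1qc* lay below every WT value. This is 2 of 9 members, against 7.60% of all genes whose groups do not overlap in either direction. The 2 chains moved together across the 17 mice (Pearson r = 0.97), so they are not separate observations. As the members were chosen with this contrast in view, the share describes them and tests nothing. In females no member was separated, against 0.238% of all genes. The 10 macrophage markers went the same way as C1q in males. All 10 had a negative difference, with a median of -0.36 beside 0.00 over all genes, and none was called. In females all 10 were negative too, with a median of -0.15 beside 0.00 over all genes, and none was called. Their summed counts were 25026 to 40313 in WT males and 18520 to 23910 in U9-KO males. Summed B cell markers were 364 to 865 in WT males and 262 to 299 in U9-KO males. In females they did not go this way, with medians of 764 in WT (482 to 1323) and 1292 in U9-KO (301 to 1583). The part of these cells in the C1q values was not tested. Without WT male 2 the differences in males shrank to -0.17 for *C1qa*, -0.29 for *C1qb*, -0.31 for *C1qc*, -0.14 for *C4b* and 0.49 for *Masp1*, and without WT male 1 *C4b* was at -1.15. In females the C1q differences ran from -0.28 to -0.07, -0.32 to -0.10 and -0.37 to -0.11 when 1 mouse was left out. Without WT male 1, 71 genes were called, no member among them. No gene was called for a difference between the sexes in the genotype effect (0% of 26289, 910 at an unadjusted p under 0.05). With groups this small, that does not show the effects to be equal. The member farthest from 0 in that test was *C4b* at -0.38 ± 0.56. Without the 2 ovary-rich females, one of each genotype, the female difference of *Masp1* was 0.61 and that of *C1qc* -0.34. When 1 female was left out, that of *Masp1* ran from 0.425 to 0.77.

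**Figure D3:**
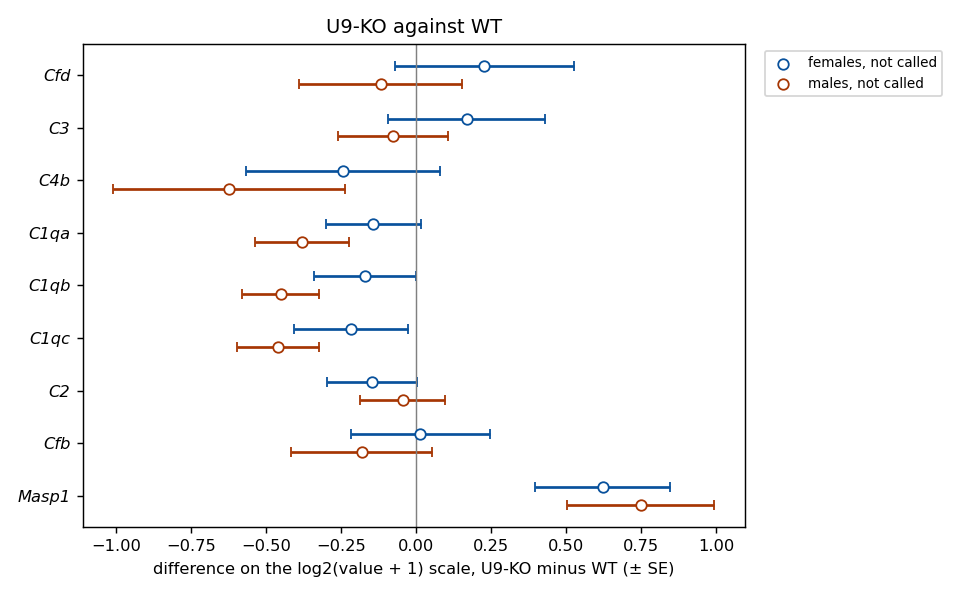
Difference of each member between U9-KO and WT mice on the log2(value + 1) scale (x axis, U9-KO minus WT, ± SE), in females in blue and males in brown. All points are open, as none was called, and *Masp1* lies farthest to the right in both sexes.

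Each member was set against 1 defining gene of adipocytes (*Adipoq*), macrophages (*Adgre1*) and progenitors (*Pdgfra*) across the 10 females and the 7 males, which makes 54 relations. WT and U9-KO mice of a sex were pooled, and group means were not removed. A difference between the genotypes can thus enter these correlations. In females *Adgre1* went with *C1qa* (Pearson r = 0.90, adjusted permutation p = 0.0208; Spearman rho = 0.90, adjusted permutation p = 0.0213), with *C1qb* (r = 0.85, adjusted permutation p = 0.0358; rho = 0.86, adjusted permutation p = 0.0385) and with *C1qc* (r = 0.91, adjusted permutation p = 0.0208; rho = 0.92, adjusted permutation p = 0.0205). These 3 relations passed by both measures. Without the 2 mice farthest from the median of *Adgre1*, r was 0.81, 0.67 and 0.73. In males *C1qc* passed by r alone (r = 0.92, adjusted exact p = 0.0438; rho = 0.89, adjusted exact p = 0.133), and r was 0.64 without 2 mice.

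*Cfd* went with *Adipoq* by r but not by rank, in females (r = 0.83, adjusted permutation p = 0.0413; rho = 0.64, adjusted permutation p = 0.245) and in males (r = 0.88, adjusted exact p = 0.0438; rho = 0.82, adjusted exact p = 0.210). In females r fell to 0.47 without the 2 ovary-rich mice, which are those farthest from the median of *Adipoq*, so the relation rests on them. In males r was 0.71 without WT male 2 and WT male 3. *C4b* in females went with *Adgre1* by r (r = 0.83, adjusted permutation p = 0.0438; rho = 0.67, adjusted permutation p = 0.210), with r = 0.74 without 2 mice. None of the 18 relations with *Pdgfra* passed.

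**Figure D4:**
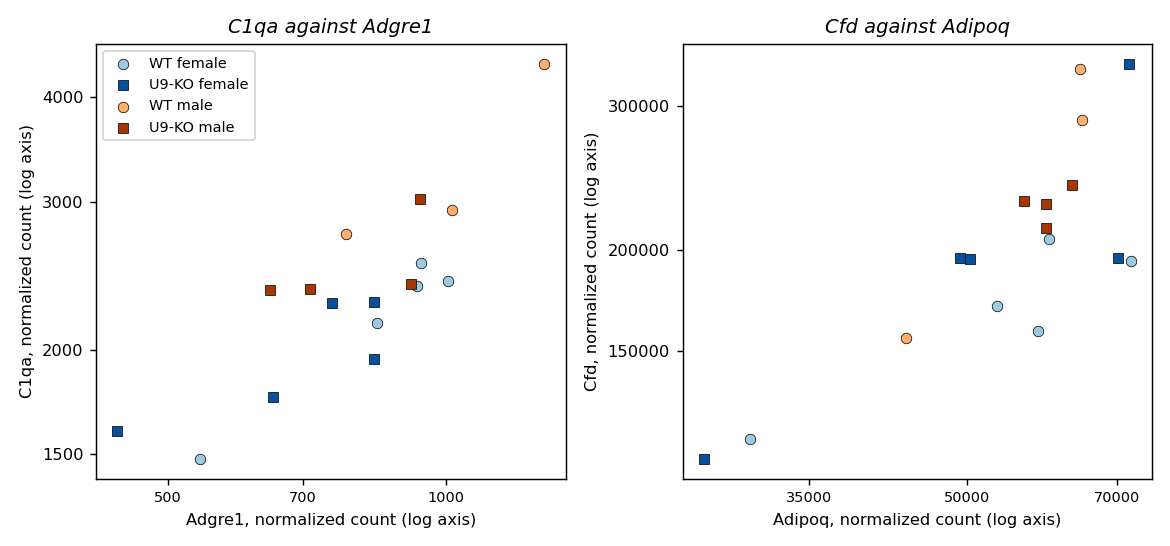
Normalized counts of *C1qa* against *Adgre1* (left) and of *Cfd* against *Adipoq* (right), log axes, 1 point per mouse, coloured by group. *C1qa* is higher in mice with more *Adgre1*, and the 2 females lowest in *Cfd*, at 110741 and 116993, are also the lowest in *Adipoq*.

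Among 13741 other genes with a mean of at least 50, the ones most like each member were found by Pearson r of the log2 values after removal of the group means over 17 mice. *Cfp*, the gene of properdin, which stabilises the alternative C3 convertase, was first for *C1qb* (0.97) and *C1qc* (0.96) and the second for *C1qa* (0.96, after *Arhgdib* at 0.96). The others for these chains were *Apba1* (0.92), *Anxa11* and *F13a1* (both 0.94), *Fcgr3* (0.93) and *Ninj1* (0.93). *C4b* was most like *C4a* (0.99), *Ldlrad4* (0.95) and *Prelp* (0.94). *Cfd* was most like *Tmem109* (0.95), *Tmco1* (0.94) and *Mtus1* (0.94), and *C3* most like *Laptm4a* (0.94), *Sdr42e1* (0.90) and *Cgnl1* (0.89). *C2* had *Slc1a3* (0.91), *Chrdl1* (0.89) and *Nupr1l* (0.86), *Masp1* had *Pomt1* (0.94), *H2-Q10* (0.94) and *Gm9797* (0.89), and *Cfb* had the weakest, *Tirap* (0.80), *Snx25* (0.79) and *Sec22c* (0.78). Among the members, *C4b* went with *C1qa* at 0.84 and *Cfd* with *C3* at 0.66, whereas *Masp1* ran against *C4b* at -0.62 and against *C1qc* at -0.60.

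The other genes of the pathway were taken from a list of 43. In WT mice 7 of the 38 tested were higher and 3 lower in males. In U9-KO mice 7 of 39 were higher and 8 lower. The shares called in either direction were 26.3% and 38.5%, against 21.1% and 25.3% of all genes tested. Of the 43, those called in the same direction in both genotypes numbered 7, among them *C4bp* at very low counts. The matching share over all genes was not counted, so the 7 are a description. *C7*, which anchors the membrane attack complex, was at 231 to 701 in the 10 females and at 5804 to 10220 in the 7 males, higher by 4.39 ± 0.32 on the log2(value + 1) scale in WT (adjusted p = 4.54e-05) and by 4.08 ± 0.18 in U9-KO (adjusted p = 4.47e-07). *C6*, its partner, was at 447 to 979 in females and 1320 to 3655 in males, higher by 2.36 ± 0.22 and 1.81 ± 0.29. *Cfp* was not called, with 0.35 ± 0.23 and 0.15 ± 0.15. Of the other 5 genes of that list *C8a* was called lower in U9-KO males, and the rest were not called or were below the filter. *C8a* was at 0 to 9 in U9-KO females and at 0 in U9-KO males, too low for a fold.

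Among the regulators most calls were lower in males, as they were over all genes tested. The shares over all genes were 12.5% lower against 8.61% higher in WT, and 15.2% against 10.1% in U9-KO. *Susd4* and *Csmd1*, membrane regulators at low levels, were lower in males with -2.63 ± 0.36 and -2.52 ± 0.68 in WT and -2.20 ± 0.30 and -2.04 ± 0.45 in U9-KO. *C4bp* was at 3 to 16 in females and at 0 or 1 in males, too low for a fold. *Clu* (clusterin) was lower in U9-KO males, with -0.86 ± 0.23, and was not called in WT, with -0.61 ± 0.22. The ovary-rich WT female 4 and U9-KO female 1 were the highest mice for *Clu* (9207 and 9153) and for *Csmd1* (197 and 195). For *Susd4* WT female 4 was the highest, at 229, while U9-KO female 1 was at 126. The part of ovary tissue in these differences was not tested. *Serping1*, the inhibitor of C1, was not called, with 0.12 ± 0.22 and -0.40 ± 0.17, and neither was *Cr1l*, which encodes the membrane regulator Crry, with 0.27 ± 0.10 and 0.24 ± 0.09. Of the 13 regulators, 3 were lower and none higher in males of the WT. In the U9-KO 6 were lower and 2, *Cd59a* and *Vtn*, were higher.

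Among the receptors most calls were higher in males. *C3ar1* and *C5ar1*, the receptors of the peptides C3a and C5a, were higher in males by 1.13 ± 0.23 and 0.84 ± 0.24 in WT and by 0.95 ± 0.22 and 0.90 ± 0.17 in U9-KO. *Itgb2*, the shared chain of the complement receptor integrins, and *Cd93* were higher in WT males, by 0.81 ± 0.25 and 0.57 ± 0.17, and were not called in U9-KO, with 0.46 ± 0.19 and 0.36 ± 0.13. Of the 9 receptors, 5 were higher in WT males, *Itgax* included. In U9-KO mice *C3ar1* and *C5ar1* alone were higher and *Vsig4* was lower. The proteases that act with C1q were not called. *C1ra* had 0.27 ± 0.15 and 0.07 ± 0.13, *C1s1* had 0.04 ± 0.15 and 0.01 ± 0.17, and the collectin *Colec12* had -0.08 ± 0.21 and -0.19 ± 0.16, none of them called. Of the 13 genes of that list, *C4a* alone was called, in U9-KO, higher in males by 1.13 ± 0.26. Its counts are uncertain, as reads of *C4a* and *C4b* were not told apart. None of the 43 other genes was called between U9-KO and WT mice in either sex.

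**Figure D5:**
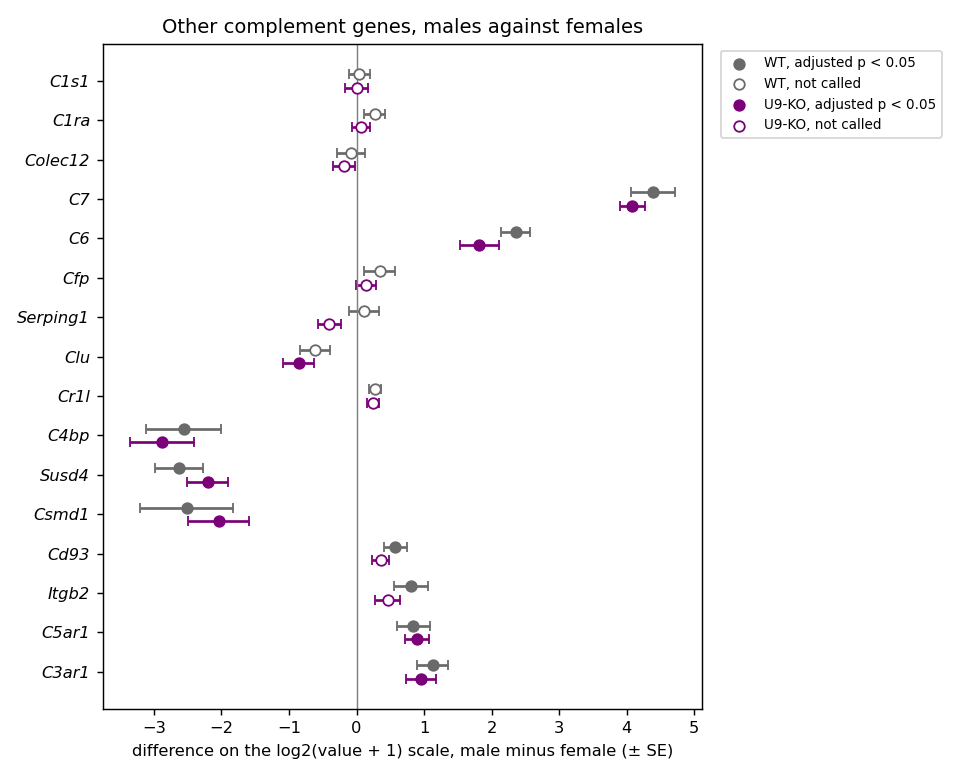
Difference between males and females on the log2(value + 1) scale (x axis, male minus female, ± SE) for the other complement genes named, WT in grey and U9-KO in purple, filled where the adjusted p was under 0.05. *C7* and *C6* lie far to the right, and the regulators *C4bp*, *Susd4* and *Csmd1* to the left.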

How the data were processed

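RNA of whole pWAT from 17 mice was sequenced as directional poly(A) libraries. The authors trimmed the reads, aligned them to GRCm38 with STAR 2.7.3a, assigned them to genes by summarizeOverlaps (Union mode) and divided the counts by size factors. DESeq2 1.28.1 is named in the submitters' processing notes. The deposited value is thus a score, a normalized count rounded to whole numbers, scaled in each sex separately, and not a raw count. The test set down for raw counts was therefore replaced by its stated substitute. In 2 male files the column's number differs from the label, which was followed. The table of all libraries was not used here.

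Genes were named and measured by GENCODE release M21, which named 55141 of 55401. limma 3.58.1 in R 4.3.3 (lmFit, eBayes with trend) was run on log2(value + 1) over all genes with a total of at least 10 in the mice of a fit, with a Benjamini-Hochberg threshold of 0.05. For the sexes, values were rescaled by median-of-ratios over the 18302 genes above 0 in all 17 libraries. Correlations used permutation tests in scipy 1.17.1, with 100000 resamples in females and exact ones in males, where p-values cover only the spread between these mice. The members, lists and tests were chosen with earlier results of these data known. Named genes were the 9 members, the 3 most abundant of each complement list, up to 3 per list called alike in both sex comparisons with the largest mean difference, the 3 genes most like each member, *Adipoq*, *Adgre1* and *Pdgfra*, and the 2 most abundant of a marker list. Others, such as *Cyp11a1*, *Alb*, *C4a*, *Gm20547*, *C8a*, *Cd59a*, *Vtn*, *Itgax*, *Vsig4* and called markers, were named after their values were seen. 1 gene of the regulator list is not reported here. The fits were tested on simulated data. No 2 libraries of a group were alike, as each pair differed in at least 24469 genes.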

Additional observations from a re-analysis of the deposited data

Results flagged for a closer look

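In groups of 4 or 5 mice, a member was marked where 1 mouse stood far from the others for the range of its group. This was the case in 3 of 27 groups examined, where chance alone marks about 1 in 20. *C4b* in WT female 4 was at 5969, with the other WT females at 14936 to 16506. *C1qc* in the same mouse was at 1238, with the others at 1969 to 2227. That mouse had the highest *Cyp11a1* of the WT females (54629), and the part of ovary tissue was not tested. *C1qa* in U9-KO male 2 was at 3028, with the other U9-KO males at 2353 to 2395.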

How the results depend on the processing

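Between genotypes the count of genes called was 0 in both sexes and stayed at 0 under the alternatives except without a variance trend, where it was 1 in females and 1 in males, and in the fits that leave out 1 mouse, where it ran from 0 to 71 in males and was 0 in females. The members' differences between genotypes moved by less than 1 residual SD under every alternative. For males against females the count ran from 2656 to 5467 in WT and from 4055 to 7690 in U9-KO when 1 mouse was left out. With a replicate block, which treats equal mouse numbers as pairs, it was 1746 in WT (members called: *Cfb* and *C2*) and 3472 in U9-KO (*C4b*, *C2* and the C1q chains), and 0 in each genotype comparison. The mice share only a number, as same-numbered mice correlated at -0.44 to 0.13 in their deviations from the group means, and not every mouse correlated best with its own number. The block left the members' direction between the sexes as it was. On the deposited scale 25.2% of the WT calls and 24.4% of the U9-KO calls were higher in males, against 40.8% and 39.8% after rescaling, and with quantile normalization 50.3% and 54.0%. Quantile normalization turned *Cfd* in U9-KO mice to -0.16, and gave *C3* a call in WT mice at -0.92. Quantile normalization and the deposited scale each ended the calls of *C4b* and *C1qa* in WT and of *C1qa* and *C1qc* in U9-KO. Of 551 alternative values of the members and the C1q ratios, 47 lost a call and 1 gained one. Without a variance trend 2 members were called in WT and 4 in U9-KO. The causes were not tested. *Cfb* had the lowest counts of the members, at 40 to 145. Only 20.5% of its exonic bases lie outside *Gm20547*, and the part of depth was not tested.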
